A study of Mus musculus with 5 samples.

Results

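The H3K4me3 list is the set of regions that the authors called with an antibody against trimethylated lysine 4 of histone H3 (Abcam AB8580), over an input library, near the start sites of annotated transcripts. Every line of the deposited list was taken. The 19072 lines pair a region with a transcript, name 18762 transcripts, and give 13142 separate regions, out of 38941 regions in the 4 antibody lists of the study. At least 1 region was listed for 14377 of 21031 protein-coding genes, which is 68.4% (exact 95% interval 67.7 to 69.0%, counting error only). Of the other kinds of gene with a curated transcript, 302 of 3319 lncRNA (9.10%), 177 of 1228 miRNA (14.4%) and 72 of 126 snoRNA genes (57.1%) had a region.

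All 5 samples of the study are nuclei from the striatum of C57BL/6 mice aged 8 weeks. Nuclei were sorted by flow on NeuN, an antigen of neurons in general. The cell type given in the labels is the medium spiny neuron, the projection neuron of the striatum, which uses GABA. Chromatin immunoprecipitation with sequencing was done for H3K4me3, H3K27me3, H3K27ac and RNA polymerase II (Pol II), with 1 library for each antibody and 1 input without antibody. There are no replicates, so no difference below carries a replicate error and no test was made. The labels do not give the sex, the number of animals or whether animals were pooled, and the depth of the libraries is unknown from the lists. In a population of nuclei, a mark in fewer nuclei and a weaker mark in each nucleus cannot be told apart.

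H3K4me3 is written by the SET1 and MLL (Kmt2) enzymes and removed by the Kdm5 demethylases. It sits on nucleosomes beside transcription start sites, and is read by PHD finger proteins such as those of the Ing family and by the Taf3 subunit of TFIID. In mammals it is concentrated at CpG islands, stretches of DNA that keep a high density of CpG, since CXXC domain proteins of the writing complexes bind unmethylated CpG. CpG island promoters can carry the mark at genes that are not transcribed, and in such genes it often lies beside H3K27me3, the mark of Polycomb repression. Broad H3K4me3 regions are known for covering genes of cell identity.

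Sequence at the promoters shows the range of DNA behind the list, so 6 promoters are printed here, chosen from genes with 1 annotated start. Each run is the 150 bases before the start, 5′ to 3′ on the strand of the gene, from RefSeq on GRCm38.p6, and capitals mark CpG. Cdk13, a cyclin-dependent kinase gene that acts in transcription elongation, had the highest score of the list (chr13:17805098-17805247, minus strand). Metap2, a methionine aminopeptidase gene, had the lowest CpG content in the highest decile group by score of the genes eligible for printing (chr10:93891203-93891352, minus strand). Thsd7b was the gene nearest to the median of the fifth such group, somewhat below the median of the list (chr1:129273154-129273303, plus strand). Camkk2, a calcium/calmodulin-dependent kinase kinase gene, had the highest CpG content in the lowest such group (chr5:122779411-122779560, minus strand). Vmn1r55, a vomeronasal receptor gene, stood at the middle of that lowest group (chr7:5147423-5147572, minus strand). Gm15246 had the highest CpG content of the genes with no listed region (chrX:169320245-169320394, plus strand).
Cdk13: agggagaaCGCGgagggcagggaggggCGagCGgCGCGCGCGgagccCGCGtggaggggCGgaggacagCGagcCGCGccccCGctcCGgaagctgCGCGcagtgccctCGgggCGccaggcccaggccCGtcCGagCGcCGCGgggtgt
Metap2: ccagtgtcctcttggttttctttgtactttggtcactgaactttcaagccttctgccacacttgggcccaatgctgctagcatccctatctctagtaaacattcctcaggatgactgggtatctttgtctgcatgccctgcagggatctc
Thsd7b: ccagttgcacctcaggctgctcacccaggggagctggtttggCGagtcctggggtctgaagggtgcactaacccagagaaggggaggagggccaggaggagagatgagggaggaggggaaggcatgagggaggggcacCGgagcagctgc
Camkk2: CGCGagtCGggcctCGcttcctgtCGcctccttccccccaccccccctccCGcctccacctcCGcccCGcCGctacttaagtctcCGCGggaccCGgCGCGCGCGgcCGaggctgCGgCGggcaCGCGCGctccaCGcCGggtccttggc
Vmn1r55: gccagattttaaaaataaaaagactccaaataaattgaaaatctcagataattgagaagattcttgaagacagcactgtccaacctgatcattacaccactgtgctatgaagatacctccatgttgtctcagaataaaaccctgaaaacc
Gm15246: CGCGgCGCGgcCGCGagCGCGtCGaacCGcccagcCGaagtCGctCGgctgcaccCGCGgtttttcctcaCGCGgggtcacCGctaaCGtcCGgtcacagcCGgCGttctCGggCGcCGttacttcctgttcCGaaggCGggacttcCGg
The printed Cdk13 run holds 25 CpG, with a score of 18.03 and a region of 9.7 kb. The Metap2 run holds 0 CpG, yet its region scored 10.51 over 6.3 kb. Between them, Thsd7b has 2 CpG, a score of 6.48 and a region of 5.8 kb. At the low end Camkk2 holds 24 CpG, nearly as many as Cdk13, while its region scored 2.13 over 3 kb. Vmn1r55 has 0 CpG and a score of 2.34 over 4.1 kb. Gm15246 holds 28 CpG and no region was listed for it. CpG content and score thus moved together in Cdk13 and Vmn1r55 and apart in Metap2, Camkk2 and Gm15246. The start on which a region was called is that of an older annotation (mm9), so a printed start need not be the one under the region.

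Scores ran from 2 to 18.03, with a median of 7.05 and quartiles of 4.92 and 8.96. The score is the authors' value of the region over input and has no unit in the sources used here, so it is used only to order regions within the list. Its distribution had 2 modes. The main one lay between 7 and 8, with 1816 regions (13.8%), and the other at the floor of the list, where 1347 regions (10.2%) scored under 3 and 203 under 2.1. Fewer regions, 902, lay between 3 and 4. At the other end 416 regions (3.17%) scored 12 or more.

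Widths ran from 2500 to 132800 bp with a median of 6400 bp, and were concentrated: 7444 regions (56.6%) were between 5 and 7 kb wide. The first decile was 5200 bp and the ninth 11800 bp. The smallest width was 2500 bp in all 4 antibody lists. Median widths were 5300 bp for H3K27ac, 4900 bp for Pol II and 12400 bp for H3K27me3. The name under which the list was deposited gives a window of 3 kb. How far this window and the way the lists were made set the smallest and the usual width was not tested. Their part in the relation of score to width was not tested either. In the H3K4me3 list 319 regions were wider than 20 kb and 18 wider than 50 kb. The widest decile group held 23.6% of the 102.6 Mb that the list covers. No 2 regions overlapped or touched. The smallest gap was 100 bp, found 31 times, and the median gap was 62.5 kb.

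**Figure D1:**
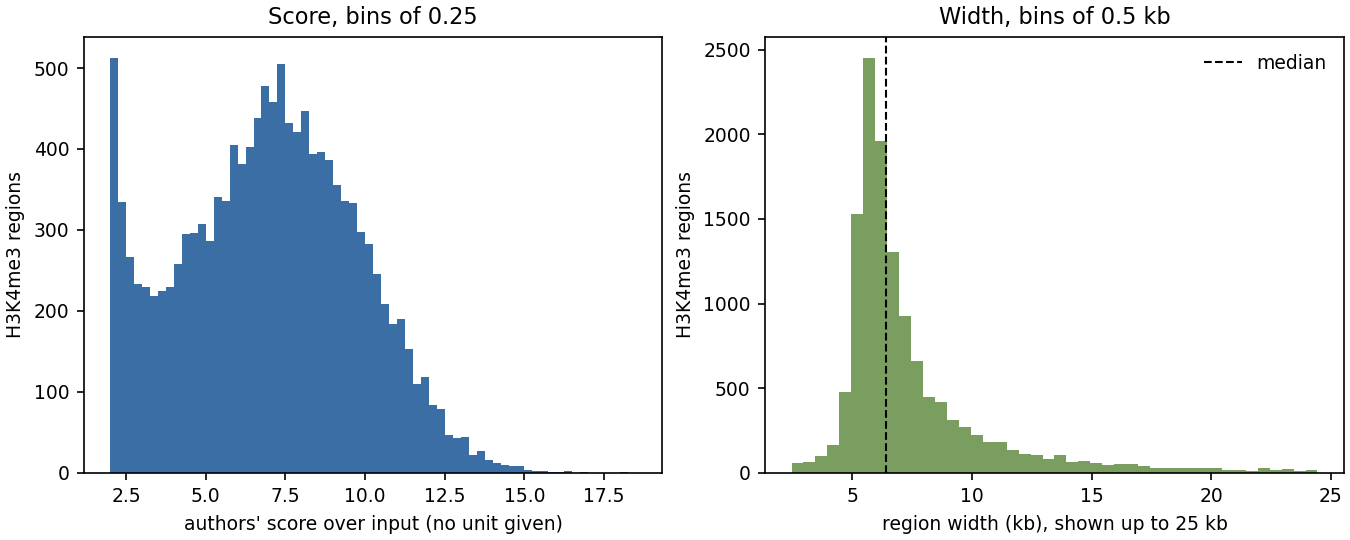
Number of H3K4me3 regions by score (left, bins of 0.25, no unit given) and by width (right, bins of 0.5 kb, shown up to 25 kb, dashed line at the median of 6.4 kb). The score has a narrow peak at the floor of 2 and a broad one near the median of 7.05, while the width has 1 peak between 5 and 7 kb and a long right tail.

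Score went up with width in the narrow part of the list and not beyond it. The values that follow describe regions that share 1 library and 1 input. Over all 13142 regions Spearman's rho was 0.576. It was 0.777 over the 8105 regions narrower than 7 kb and -0.0533 over the 5037 regions of 7 kb or more. By decile group of width, the median score went from 2.52 in the narrowest group through 4.71, 6.08, 6.89, 7.80 and 8.47 to 8.81 in the seventh group, and then stayed at 8.67, 8.46 and 8.62. The 867 regions narrower than 5 kb had no score above 3.83. Regions wider than 20 kb were found at both ends of the range: 113 were in the highest quintile of regions by score and 75 in the lowest.

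**Figure D2:**
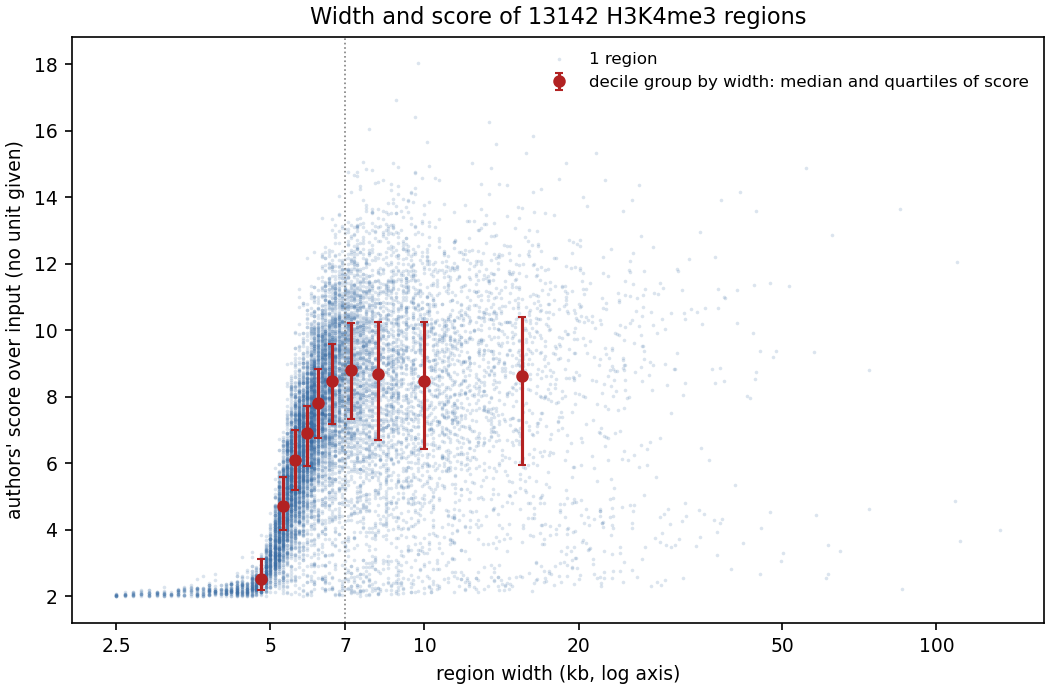
Score (no unit given) against width (kb, log axis) of the 13142 H3K4me3 regions, 1 small point each, with the median and quartiles of score in each decile group of width in red and a dotted line at 7 kb. The points climb steeply up to 7 kb and spread over the whole range of score beyond it.

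Regions with starts on both strands, where genes face apart or toward each other within the listed region, were 1594 in number (12.1%). Their median score was 8.42 and their median width 7300 bp, against 6.85 and 6300 bp for the 11548 regions with starts on 1 strand. Their share went from 3.12% of the lowest decile group by score to 21.1% of the highest. Among the regions with a gene symbol, 11149 carried 1 symbol, 1716 carried 2, and 268 carried 3 or more. The last had a median width of 13850 bp and a median score of 8.28. The most symbols, 14, stood on a region of 16.5 kb with a score of 3.04 that holds Mirg and a cluster of miRNAs such as Mir134 and Mir154, which lie in an imprinted domain. The next miRNA-rich region, with Rtl1 and Mir127, scored 2.76 over 23.4 kb. By contrast the region of the Mir17 cluster with its host gene Mir17hg scored 11.05 over 6.8 kb.

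In the other direction, 469 symbols had 2 regions and 22 had 3 or more. For such a gene the score of its highest-scoring region and the width of its widest are given. Schip1 shows how far they can differ: one of its regions had a score at the floor of the list, 2, over 3.5 kb, and another gave the gene a score of 6.91. Myo1e was likewise both among the narrowest regions, at 2.5 kb with a score of 2.04, and among ordinary ones, with a score of 6.33. Another 12 regions were listed with unequal scores for different lines, and the higher was kept. The largest gap was at Ppp1r16b, with 2.87 and 12.5, and Dclk3 had 2.33 and 11.1.

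The 10 highest-scoring regions were those of Cdk13 (18.03), Kcnn2 (16.9), Sh3rf3 (16.4), Cpeb2 with Gm7854 (16.3), Scaf8, listed as Rbm16 (16.1), Klhl29 with 2810032G03Rik (15.9), Dpm1 with Mocs3 (15.7), Arid1b (15.6), Kmt2d, listed as Mll2 (15.3), and Safb with Safb2 (15.3). They code for a potassium channel of the SK type (Kcnn2), a translation regulator (Cpeb2), a binding protein of the Pol II tail (Scaf8), a BAF subunit (Arid1b), an H3K4 methyltransferase (Kmt2d) and scaffold attachment factors (Safb and Safb2). In 4 of these 10 regions genes lie on both strands. Their widths, 7.8 kb at Scaf8 to 21.6 kb at Kmt2d, were all above the median of the list and far below its widest. The Cdk13 region is chr13:17890201-17899900 and the Kmt2d region chr15:98683801-98705400, both in mm9.

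The ordinary promoter of the list lay a little to either side of the median score of 7.05. In the fifth decile group, at a score of 6.70, stood Rexo4 (8 kb), Gna12, a G protein subunit (5.4 kb), and Ndc1, a nuclear pore protein listed as Tmem48 (5.5 kb). In the sixth, at 7.40, stood the splicing gene Bcas2 (5.9 kb), Arhgap23 (8.8 kb) and Mcf2l (8.9 kb). The third group, at 4.92, had Drd4, a dopamine receptor gene (7 kb), with Emp3 and Mei4 (5.5 kb each). The fourth, at 5.88, had Gpx1, which codes for glutathione peroxidase (6.7 kb), Adamts16 (6 kb) and the divergent pair of Arrdc5 and the maintenance methylation gene Uhrf1 (6.2 kb).

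Above the middle the genes were again of mixed function. The seventh decile group had Zbtb6 and the elongin gene Eloc, listed as Tceb1, both at 8.14 and 6.2 kb. The eighth had the motor protein gene Myo6 at 8.96 and 6 kb. In the ninth stood Stk25 (7.3 kb) and Gpc1, a glypican gene (7.5 kb), both at 9.95. The middle of the tenth group lay at 11.5, with Ankrd11 (7.6 kb), Fbxo11 (8.7 kb) and the divergent pair of Pus3 and Ddx25 (6.5 kb).

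The lowest-scoring regions of the list were narrow. The 10 lowest scores, all between 2 and 2.004, belonged to Olfr63, Olfr345, Schip1, Cyp4f39, Mlana, Vmn1r64, Tssk2, Golgb1, BC048671 and Mir219-2, with widths of 2.5 to 4.6 kb. Mlana codes for a melanocyte antigen, Tssk2 for a testis kinase, and Olfr63 and Olfr345 for odorant receptors. The 13 narrowest regions were at the smallest width, 2.5 kb, and included those of Olfr857, Olfr1414, Olfr926, Olfr310, Olfr381, Vmn2r69 and Nr0b2, with scores of 2.008 to 2.069. At the middle of the lowest decile group, at 2.35, stood Gfi1b, a blood transcription factor gene (4.2 kb), Clec4a4, a lectin gene of immune cells (5.8 kb), and Abpd (10.6 kb). At the middle of the second, at 3.71, stood Gata3 with 4930412O13Rik (31.4 kb), Ptgfr (5.3 kb) and Tcp11 (5.2 kb).

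The 10 widest regions divided into high and low scores. High scores went with Pde10a (109.7 kb, score 12.1), Baiap2 (84.8 kb, 13.6), Slc6a6 (62.5 kb, 12.9) and Bcl11b (73.9 kb, 8.82). Pde10a is a striatal phosphodiesterase gene, Slc6a6 the taurine transporter gene, and Bcl11b a transcription factor gene of striatal projection neurons. Low scores went with the Hox clusters: Hoxb1 to Hoxb9 (132.8 kb, score 3.998), Hoxc5 to Hoxc13 (111.3 kb, 3.67), Hoxa2 to Hoxa11 (108.6 kb, 4.85) and Hoxd3 to Hoxd13 with Evx2 (73.7 kb, 4.63). The remaining low-scoring wide regions were that of Sfi1 and Eif4enif1 with Pisd-ps1 and Pisd-ps3 (85.7 kb, 2.20) and that of Aadacl3 (64.8 kb, 3.35).

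Ranking regions by the difference between their ranks of width and score picked out other shapes. Wide for their score were, beside Sfi1, the regions of Trpm8 (29 kb, score 2.33), Nlrp2 (27.7 kb, 2.32), Olfr3 (22.1 kb, 2.31), Vmn1r76 (29.5 kb, 2.48), Mrgprb4 (16.2 kb, 2.16), Psg27 (22.1 kb, 2.39) and Dux (24.4 kb, 2.44). Many of these belong to families of near-identical copies, where reads that map to several copies can be placed in more than one way. How the authors treated such reads is not given in the sources used here. Narrow for their score were Ipo7 (5.7 kb, 11.2), Klhl24 (5.7 kb, 11.01), Cpox (5.9 kb, 12.2), Ift88 (5.8 kb, 10.8), Dnajc11 (5.8 kb, 10.8), Guf1 (5.8 kb, 10.8), Rhobtb3 (5.7 kb, 10.2) and Mospd1 (5.6 kb, 9.91). Cpox is an enzyme of haem synthesis, Ipo7 an importin and Ift88 a protein of cilia. All 10 of these regions were listed for 1 gene each.

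Promoter sequence, which the list did not use, varied along the score. It was taken over 300 bases, 250 before to 50 after the start, for 13879 of 16403 coding genes (84.6%) on the 16 chromosomes for which RefSeq promoters of at least 80% of genes were to hand. CpG content is given as observed over expected, the number of CpG relative to that expected from the C and G of the window. Genes with no region had a median of 0.190 (quartiles 0.0961 and 0.313). Genes in the lowest score quintile had 0.469, and the next ones had 0.713, 0.773, 0.788 and 0.828. The steepest part of the change thus lay at the low end, between genes with no region and the second quintile, where scores reach 6.64. Over the 9336 listed genes with a promoter, Spearman's rho of CpG content and score was 0.397.

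By width the same quantity went up and then down. Its medians were 0.570 in the narrowest quintile, 0.755, 0.804 in the middle one, 0.778, and 0.724 in the widest. Spearman's rho with width was 0.161 over the same genes. The widest regions thus had less CpG at the start than regions of middling width. A window of 300 bases says nothing of CpG elsewhere in a region of 20 kb.

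**Figure D3:**
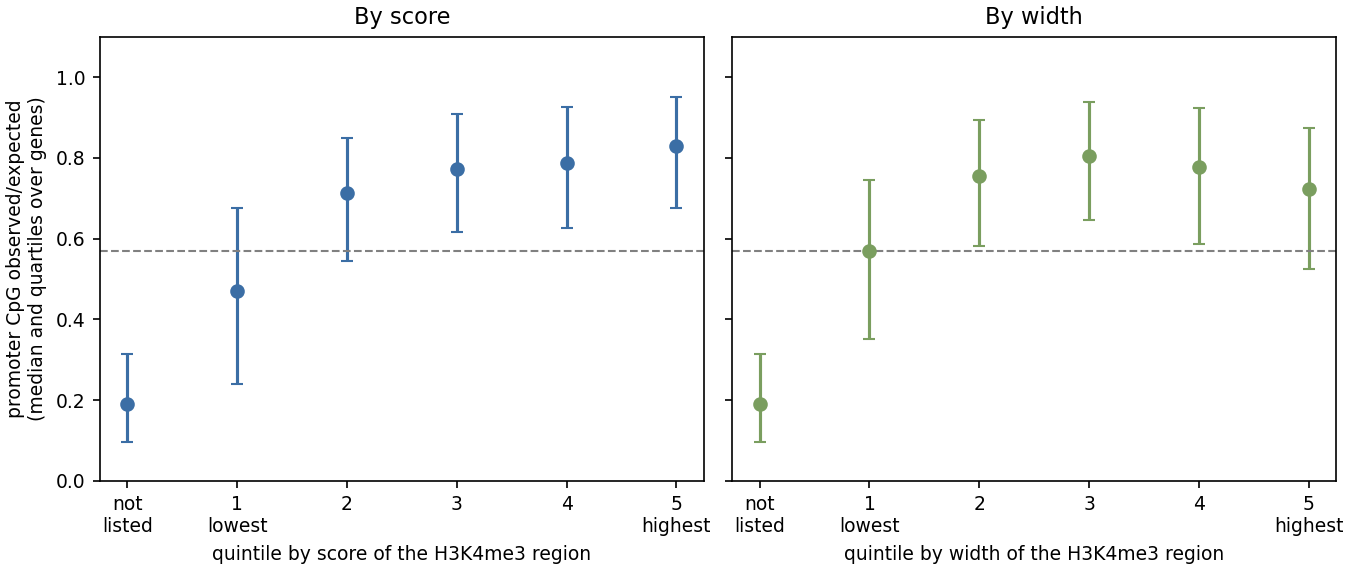
Median and quartiles (bars) of promoter CpG observed over expected for coding genes with no H3K4me3 region and for quintiles of listed coding genes by score (left) and by width (right), with a dashed line at the median of all genes, 0.569. The medians climb along the score from 0.469 to 0.828, and along the width they peak at 0.804 in the middle quintile.

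A start was called an island start when CpG observed over expected was at least 0.6 and G+C at least 50%, and a gene an island gene when 50% or more of its starts were. A region was listed for 6329 of 6587 island genes (96.1%), and for 2862 of 7138 genes with no island start (40.1%). The share of island starts was 5.31% in genes with no region, 31.5% in the lowest quintile, 63.9%, 72.7% and 74.9% in the next ones, and 80.9% in the highest. Genes with no island start were therefore a minority in the highest quintile, where they numbered 258, and their regions there had a median width of 9000 bp, against 7900 bp for the 1558 island genes.

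Among the highest-scoring genes with no island start were neuronal ones, named here after their values were seen. Slc32a1, the vesicular GABA transporter, had a score of 13.4, a width of 14.5 kb and a CpG value of 0.574, just under the island limit. Grm7, a metabotropic glutamate receptor, had 13.9, 9.3 kb and 0.409. Rin1, a Ras effector of forebrain neurons, had 14.4, 26.3 kb and 0.291. Genes without a neuronal role stood there too, such as the glycolytic regulator Pfkfb2 (14.6, 9.9 kb, 0.292) and the splicing gene Sfpq (13.8, 9.5 kb, 0.758, with G+C of 48%). The Pfkfb2 region was also listed for Yod1, so its score need not belong to a Pfkfb2 start. The CpG values of Pfkfb2 and Grm7 are means over 3 and 2 starts.

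The reverse case, an island gene with no region, occurred 258 times. Of these genes 76 had a region in the H3K27me3 list, 2 in the H3K27ac list and 1 in the Pol II list, and 181 had none in any list. They include Usp37, Adipor2, Aff3 and Lcor. The lists do not name the transcripts that were searched, so a gene with no line may have no region or may not have been looked at.

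Promoter motifs were searched as letters on both strands of the same 300 bases, where a match is a description and not a binding site. The TATA box (TATAAA) was found at 13.5% of all promoters. It was found at 24.7% of those with no region, at 13.7% in the lowest score quintile and at 4.25% in the highest. The GC box (GGGCGG), the site of Sp1, is itself a CpG word and was found at 46.6% of all promoters, from 13.3% with no region through 46.5% in the lowest quintile to 71.6% in the highest. CCAAT, the site of NF-Y, was at 39.3% of all promoters and varied little, from 41.1% with no region to 33.9% in the highest quintile.

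For ETS and NRF1 the pattern was another: the shares were low up to the lowest quintile and level from the second or the third on. The ETS motif (CCGGAAG, 11.9% of all promoters) was found at 3.41% of promoters with no region, 6.23% in the lowest quintile, and between 17.3% and 19.6% in the other quintiles. The NRF1 motif (GCGCNTGCG, 8.80%) was found at 1.31%, 3.44%, 12.1% in the second quintile and between 15.4% and 15.7% in the rest. The cyclic AMP response element (TGACGTCA, 2.28%) was found at 0.482% with no region and 1.89% in the lowest quintile. In the other quintiles it was found at between 3.09% and 3.70%. The E-box (CACGTG, 7.87%) went from 4.20% with no region to 10.99% in the fourth quintile and 9.66% in the highest. The YY1 motif (AAGATGGCG, 1.89%) was found at 0.260%, 4.13% and 3.19% in the same groups. All of these motifs except TATAAA and CCAAT contain CpG, which the promoters of high score hold more of. In the printed runs the GC box is found at Cdk13, Camkk2 and Gm15246, the ETS motif at Cdk13 and Gm15246, CCAAT at Metap2, and none of the motifs at Thsd7b and Vmn1r55.

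Marker genes were set beside the label of the nuclei. Their lists were chosen with earlier results of these data known, so the values describe the list and are no check of the label. All 8 neuron markers had a region, with a median score of 10.2 against 7.33 for all listed coding genes, and 5 of 8 were in the highest score quintile, which holds 13.7% of all coding genes, as the lowest also does (13.7%). Rbfox3, which codes for the NeuN antigen, scored 11.9 over 9.4 kb, and Snap25, a synaptic vesicle fusion protein, 11.6 over 11.2 kb. The lowest of them was the RNA-binding protein gene Elavl4, with 5.87. For microglia 1 of 8 markers was listed, C1qa with 2.33, and Cx3cr1, Csf1r, P2ry12, Tmem119, Aif1, C1qb and Ptprc had no region.

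Of the markers of other cell types, the shares listed are to be read against the 68.4% of all coding genes. They were 62.5% for astrocytes, 66.7% for oligodendrocytes and 70% for interneurons, near that background, and none of these markers was in the highest score quintile. Of 8 astrocyte markers 5 were listed: Slc1a2 (7.96), Aldoc (6.95), Slc1a3 (4.98), Gja1 (4.19) and Gfap (2.095), while Aqp4, Aldh1l1 and S100b were not. Of 9 oligodendrocyte markers 6 were listed, led by Mbp (9.02) and Olig1 (7.51), and Mag and Mobp were among those that were not. Of 6 endothelial markers 3 were listed, Kdr (5.46), Flt1 (4.83) and Cldn5 (3.92). Their part in the list was not tested. Of 10 interneuron markers 7 were listed with a median of 3.65 and none above 4.90: Lhx6, Chat and Slc18a3, which share a region, Npy, Pvalb, Sst and Calb2. Th, Nos1 and Htr3a were not.

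Of 16 medium spiny neuron markers 15 had a region, with a median score of 11.3 and a median width of 22.3 kb, against 6.6 kb for all listed coding genes. The highest quintile held 11 of the 16. The markers include the GABA genes Slc32a1 (13.4), Gad1 (11.7) and Gad2 (9.02), which are not particular to these neurons and were not put in the interneuron list. Adcy5, the main adenylyl cyclase of the striatum, scored 13.6 over 44.5 kb, Gnal, the G protein subunit coupled to it, 11.9 over 16.9 kb, and Ppp1r1b, which codes for DARPP-32, 11.3 over 51.5 kb. Gng7 was the lowest, at 8.42 over 37 kb. No region was listed for Foxp1 in any of the 4 lists. The genes of the direct and indirect pathways, the 2 classes of these neurons, were lower in score: a median of 6.85 for 9 of 9 direct pathway genes and of 6.53 for 7 of 7 indirect pathway genes. The dopamine receptor genes themselves had 6.85 over 10.9 kb (Drd1) and 5.85 over 13.7 kb (Drd2), and the opioid peptide genes had 5.14 (Pdyn) and 6.53 (Penk).

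The genes of the machinery of the mark were mostly listed, as island genes in general were. Of 17 genes of the H3K4 methyltransferase complexes 16 had a region (94.1%), beside 68.4% of all coding genes and 96.1% of island genes. Their median score was 10.1, and 9 were in the highest quintile, which holds 13.7% of all coding genes. The enzymes ranked from Kmt2d (15.3) through Kmt2c (13.7), Kmt2a (11.8) and Kmt2b (10.3) to Setd1a (10.1), with the related gene Kmt2e at 10.8, and no region was listed for Setd1b. Among their partners the H3K27 demethylase Kdm6a had 15.1 and the SET1 subunit Wdr82 had 13.0. The core subunits were lower, with Wdr5 at 9.18, Dpy30 at 9.02, Rbbp5 at 8.81 and Ash2l at 7.88, and the CpG-binding subunit Cxxc1 was the lowest at 6.01.

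All 7 H3K4 demethylases were listed, with a median of 8.88, from Kdm5a (12.6) and Kdm5b (10.3) to Kdm5d (6.20). Kdm5d lies on chromosome Y, where 6 of 78 coding genes had a region. All 15 readers were listed too, with a median of 8.85. Ing2 (14.9) and the remodeller Chd1 (12.7) led them, Taf3 had 10.1, and Sgf29 was the last with 5.04. Mediator, which joins transcription factors to Pol II, had 33 of 33 subunits listed with a median of 8.40, while the general factors and Pol II subunits had 38 of 39 with a median of 7.45. Polr2a, the largest subunit of Pol II, had only 5.23 over 6.8 kb. All 20 BAF genes were listed with a median of 8.94, from Arid1b down to Phf10 at 5.06.

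Neuronal signalling families ranged from high to near the median of all listed coding genes, 7.33. For these and the later families, shares listed are to be read against 68.4% of all coding genes. Shares in the highest or the lowest quintile are to be read against 13.7%. Adenylyl cyclases and phosphodiesterases had 27 of 34 genes listed (79.4%) with a median of 7.58. RGS genes, regulators of G protein signalling, had 17 of 23 (73.9%) with 7.71. Metabotropic glutamate receptors were listed in 8 of 8 cases with a median of 11.2, from Grm7 (13.9), Grm4 (12.2) and Grm8 (12.03) down to Grm6 (5.82), the receptor of retinal bipolar cells, and Grm2 (3.99). Ionotropic glutamate receptors were listed in 16 of 16 cases, with a median of 9.81 and a median width of 14.95 kb. The NMDA subunit Grin1 had 12.2 over 22.3 kb and the AMPA subunit Gria2 had 11.6 over 15.8 kb, whereas Grin2c, known from the cerebellum, had 4.25 over 7.5 kb. Of 19 GABA-A receptor genes 14 were listed (73.7%, near the share of all coding genes), with a median of 9.01. Gabra6, a subunit of cerebellar granule cells, and the rho subunit genes Gabrr1, Gabrr2 and Gabrr3 were not.

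Vesicle release genes were listed in 24 of 24 cases with a median of 9.02. The lowest of them were the vesicular glutamate transporters Slc17a7 (4.36) and Slc17a6 (3.01), markers of excitatory neurons, while the GABA transporter Slc32a1 had 13.4. Of 92 potassium channel genes 74 were listed (80.4%), with a median of 8.18. The highest quintile held 22 of the 92 (23.9%) and the lowest 18 (19.6%), beside 13.7% of all coding genes in each. Scores ranged from Kcnn2 (16.9) and Kcnj4 (14.2 over 41.3 kb) to Kcnh6 (2.24). Postsynaptic scaffold genes had 20 of 21 listed with a median of 9.16, from Dlgap4 (13.7 over 22.5 kb) to Dlgap1 (2.62 over 4.4 kb).

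Immediate early genes, which neurons induce upon firing, were listed in 20 of 20 cases with a median of 9.9995. The highest quintile held 11 of them (55%), beside 13.7% of all coding genes. Arc had 13.2 over 9.9 kb and Egr2 12.7 over 19.2 kb. Fos had 8.69 over 9.2 kb, and the lowest was Ier2 with 4.61 over 13.6 kb. The 18 circadian clock genes were all listed, with a median of 9.88, from Bhlhe41 (13.5) to Rorb (6.93). Of these genes 11 (61.1%) were in the highest quintile. Their median width was 9.1 kb, with Per1 at 28.5 kb and Dbp at 24.4 kb.

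Housekeeping families were almost complete and close to the middle of the range. Cytosolic ribosomal protein genes were listed in 82 of 85 cases with a median of 8.17. The highest quintile held 10 of the 85 (11.8%), near the 13.7% of all coding genes. Rpl10l, Rpl32l and Rpl39l had no region. For oxidative phosphorylation 86 of 92 were listed with a median of 8.05. Its lowest members, Cox7a1 (2.12) and Cox6b2 (2.52), and its members with no region, among them Cox6a2, Cox8b and Cox8c, are isoforms known from muscle or testis. Proteasome genes were listed in 37 of 39 cases with a median of 7.86, the mitochondrial ribosome in 78 of 78 with 7.46, and aminoacyl-tRNA synthetases in 20 of 20 with 7.22. Splicing factors were listed in 45 of 45 cases with a median of 8.40.

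Genes of the cell cycle and DNA replication were all listed, 22 of 22, though their median score of 5.91 was under that of all listed genes. Only Ccne2 (13.5) was in the highest quintile, and Ccnb2 (3.01), Cdc6 (3.57) and Cdk1 (3.68) were at the low end. Their promoters had a median CpG value of 0.949, above that of most lists, against 0.583 for all coding genes with a promoter. Zinc finger genes named by number had 332 of 392 listed, and their median of 6.98 over 6.2 kb was also below that of all listed genes.

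Hox genes were listed in 39 of 39 cases, with a median score of 3.998 and a range of 3.23 (Hoxd4) to 5.76 (Hoxd1). They share 9 separate regions, so the 39 values are not independent. In 37 of them the region was wider than 20 kb. Collagen genes were listed in 35 of 44 cases with a median of 3.94, led by Col4a1 and Col4a2 (9.46), which share a divergent promoter.

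Several large families of other tissues had small shares listed, and the cytochrome P450 genes a larger one. Of 1104 olfactory receptor genes 92 were listed (8.33%), with a median score of 2.21. Of 355 vomeronasal receptor genes 88 were (24.8%), with a median of 2.34. Together they had 202 regions, of which 196 scored under 3, and these made up 14.6% of all regions under 3. The exceptions were Olfr986 (8.05), Olfr94 (5.82), Olfr95 (3.90), Olfr58 (3.34), Vmn1r90 (4.62 over 11.4 kb) and Vmn2r29 (3.01). Promoters of the olfactory and the vomeronasal receptor genes, listed or not, had median CpG values of 0.107 and 0.118. Keratin genes were listed in 13 of 105 cases, beta defensins in 5 of 42, and cytochrome P450 genes in 49 of 93 with a median of 2.59. With only regions that score at least 3, the listed genes number 4 olfactory, 2 vomeronasal, 5 keratin, 1 beta defensin and 19 cytochrome P450 genes. The highest P450 genes were Cyp2t4, with 8.68 over 16.1 kb, and Cyp46a1, the cholesterol hydroxylase of neurons, with 8.10 over 16.5 kb.

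Small sets of tissue genes had few members listed, over a wide range of scores. Of 20 muscle genes 4 were listed, and while Des, Tnnc2 and Acta1 scored 4.65 or less, Mylpf scored 11.8 over 8.7 kb, with a CpG value of 0.0890. The list gives no more than the region and its symbol, so whether that mark belongs to the Mylpf start was not tested. Of 19 liver genes 4 were listed, Apoa2 with 6.81, Apoa1 and Apoc3 with 3.34 and Hp with 2.02, and Alb had no region. The Apoa2 region was also listed for Tomm40l, and which of the starts carries the mark was not tested. Of 20 germline genes 7 were listed, from Tdrd1 (8.28), Sycp2 (7.56) and Tnp2 (6.14) to Ddx4 (2.05).

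**Figure D4:**
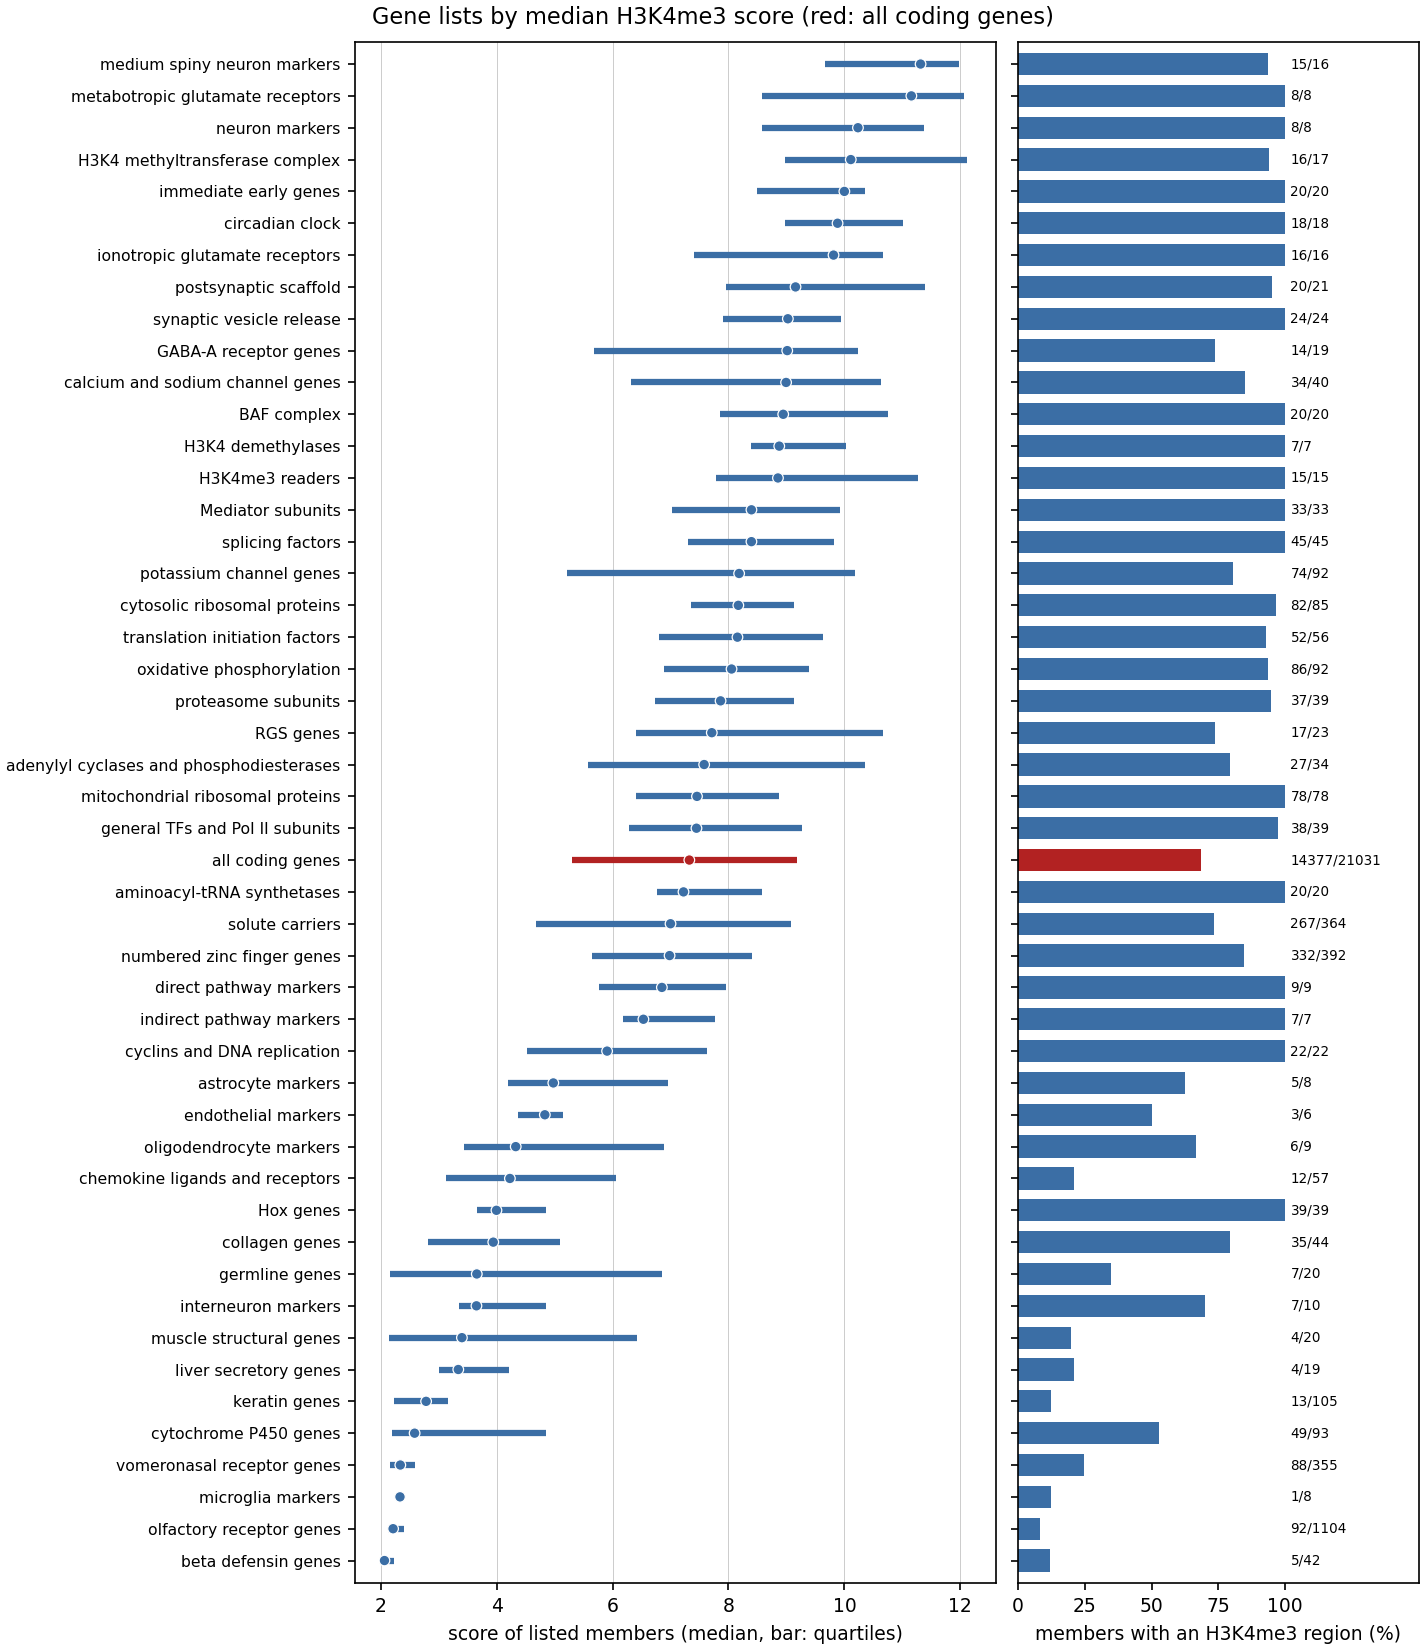
Left, median and quartiles (bars) of the H3K4me3 score (no unit given) over the listed members of each gene list; right, percent of members with an H3K4me3 region, with the counts beside the bars. All coding genes, in red, stand at 7.33 and 68.4%, with medium spiny neuron markers at the top (11.3) and olfactory receptor and beta defensin genes at the bottom.

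Chromosomes differed in the share of coding genes listed. Chromosome 12 had the highest share, 79.8%. Chromosome 7, which holds many receptor genes, had 60.4%. Chromosome X had 52.2%, 472 of 905 genes. Median scores on the autosomes and X lay between 6.63 and 7.96. On Y the listed genes were Uty (7.58), Eif2s3y (6.67), Kdm5d, Ddx3y (6.09), Sry (2.45) and Ube1y1 (2.01).

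The lists of the other antibodies were made over the same input library, so their values are set side by side at the same genes and no overlap between lists is read as a result. Over all coding genes H3K27ac reached 51.5%, Pol II 41.7% and H3K27me3 42.5%. At genes with no H3K4me3 region the shares were 0.286% for H3K27ac, 0.301% for Pol II and 57.7% for H3K27me3. In the lowest H3K4me3 quintile they were 16.3%, 8.45% and 75.1%. In the second quintile they were 70.8%, 41.3% and 45.0%, and in the highest 99.1%, 96.7% and 10.2%. H3K27me3 thus had its highest share in the lowest H3K4me3 quintile, not in the genes with no region. At those lowest-quintile genes the H3K27me3 regions had a median score of 4.77 and a median width of 22900 bp, against 3.14 and 14300 bp at genes with no H3K4me3 region.

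**Figure D5:**
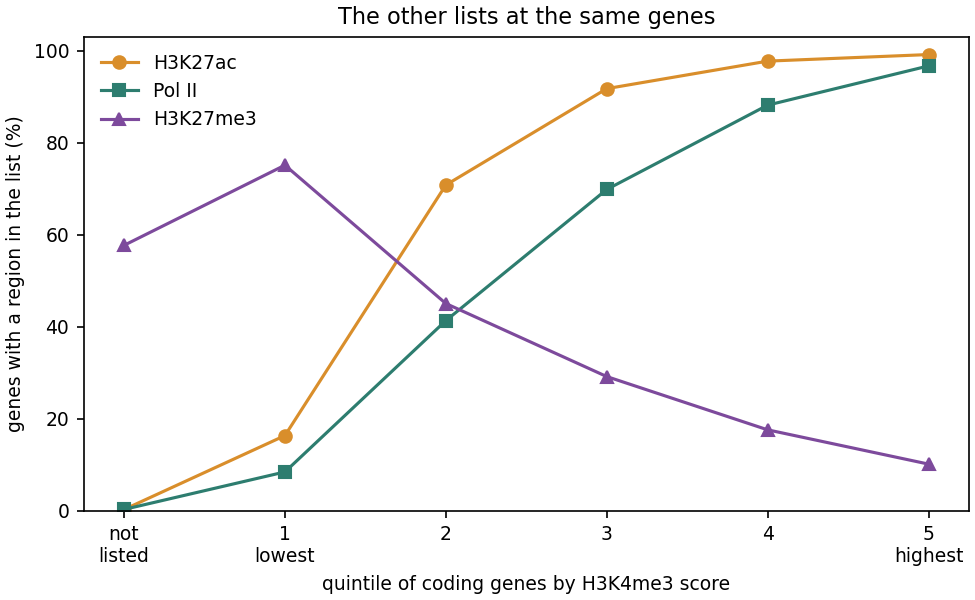
Percent of coding genes with a region in the H3K27ac, Pol II and H3K27me3 lists, for genes with no H3K4me3 region and for quintiles of listed genes by H3K4me3 score. H3K27ac and Pol II climb from under 1% to 99.1% and 96.7%, and H3K27me3 peaks at 75.1% in the lowest quintile and ends at 10.2%.

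Single genes from along the range show these values. Cdk13, at the top of the H3K4me3 list, had 10.3 in the H3K27ac list, 6.17 in the Pol II list and no H3K27me3 region. Safb, also in the first 10, had 5.76 for H3K27ac and 3.18 for Pol II. Cpox, with a narrow H3K4me3 region of high score, had 5.78 for H3K27ac and 2.95 for Pol II. In the middle, Bcas2 had 2.83 for H3K27ac, 2.30 for Pol II and 3.13 for H3K27me3. Values of different lists are on different scales of depth and are not compared in size.

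At the low end the side-by-side values were of another kind. Hoxb4, with its H3K4me3 region of 132.8 kb, had no H3K27ac or Pol II region and an H3K27me3 score of 13.3 over 384.3 kb. Gata3, with 3.71 for H3K4me3, had 11.5 for H3K27me3 over 137.1 kb. Gfi1b, with 2.35, had 8.15 over 23.8 kb. Drd4 had 4.92 for H3K4me3 and 4.52 for H3K27me3 over regions of 7 and 6.7 kb, and neither H3K27ac nor Pol II. Sfi1, wide at a score of 2.20, also had a wide H3K27ac region of 79.2 kb with a score of 2.58, and an H3K27me3 region with a score of 2.13. Golgb1 and Tssk2, at the floor of the H3K4me3 list, had no region in any other list. Camkk2 and Vmn1r55, both printed, differed there: Camkk2 had no other region, and Vmn1r55 had an H3K27me3 score of 4.48.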

How the data were processed

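The deposited list gives each region's position, a RefSeq transcript, a gene symbol, a strand and a score, which is the authors' own value over input. The sources used here give neither its scale nor the tool behind it. Bowtie 0.12.7, MACS 1.4 and build mm9 are named in the submitters' processing notes, with no role or order. No score is under 2 and bounds lie on a grid of 100 bp; wide regions are listed whole. Regions were made unique by position, with the higher of unequal scores kept. Transcripts were matched to the RefSeq gene table of GRCm38.p6: 97.9% of lines by accession, 273 by symbol and 70 by an older symbol, with 50 unmatched and left out. Positions of regions are mm9, counted from 1. A gene takes its highest score and its widest region. Decile groups are of regions, except those from which promoters were printed, which are of the genes eligible for printing. Quintiles are of listed coding genes by rank, except where regions are named. Promoters with undetermined bases were left out, and values were averaged over a gene's starts.

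With 1 library per antibody no test was run. Intervals are exact (Clopper-Pearson), and correlations are descriptions. Members and gene lists were chosen with earlier results of these data known. Named genes are those of the 10 regions highest and lowest in score, widest, narrowest, widest or narrowest for their score, or with most genes, 3 at the middle of each decile group, and up to 4 at each end and 4 unlisted of each of 47 lists (all of a list of 20 or fewer); others were chosen after their values were seen. A few genes within the rule are not reported here. The rank correlation, the CpG value, the values per region and gene and the grouping by rank were tested on simulated data. The motif search, the exact intervals and the matching of transcripts to genes had no such test. Work was done in Python 3.11.15 with matplotlib 3.10.9, scipy 1.17.1, pandas 2.3.3 and numpy 2.4.6. The closing section gives the alternatives tried.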

Additional observations from a re-analysis of the deposited data

How the results depend on the processing

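No paired analysis was possible because there is 1 library per antibody and no test, and no library could be left out. With 1 value per file line instead of per region the median width was 6600 bp, the median score 7.32 and Spearman's rho of width and score 0.535. Keeping the lower of unequal scores gave 6400 bp, 7.04 and 0.573, and merging touching regions changed none of the 3 values, since no regions touch. The count of coding genes listed was 13233 at a score of at least 3, 14261 by accession alone, and 7774 in the upper 50% by score, where fewer regions are kept. The difference in median CpG value between listed and unlisted genes was 0.542. It was 0.516 over the 250 bases before the start, 0.559 at a score of at least 3 and 0.571 for genes with 1 start; all chromosomes gave 0.547. The difference between the highest and the lowest quintile, 0.359, ranged from 0.356 to 0.383 over 5 alternatives. All chromosomes and genes with 1 start were chosen after seeing the data. List medians of score from the widest region, and of width from the highest-scoring region, stayed within the 95% interval of the reported median in all 47 lists. Only 474 coding genes have 2 or more regions, so these medians could hardly differ. At a score of at least 3 the listed members fell by more than 1.5 times in 8 of 47 lists: to 4 olfactory, 2 vomeronasal, 19 cytochrome P450, 5 keratin, 1 beta defensin, 0 microglia, 2 muscle and 4 germline genes. The depth of the libraries is unknown here, so its limit on the list cannot be given.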
